A study of Mus musculus with 6 samples.

Results

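The 84 genes described here are nuclear genes taken to stand for the oxidative phosphorylation machinery of the mouse, and not all of its nuclear genes. They were chosen by gene symbol from the 24054 rows of the deposited table, with no use of their values. They comprise 35 genes of complex I, 4 of complex II, 8 of complex III, 19 of complex IV, 15 of complex V and 3 whose symbols match but that are not structural subunits. The symbol rule missed the subunit genes Ndufab1 (complex I), Cyc1 (complex III) and Usmg5 (complex V), which were listed with electron carriers and accessory proteins instead. Ndufa4 and its relative Ndufa4l2 were placed in complex IV, since Ndufa4 is a subunit of cytochrome c oxidase despite its name.

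RNA of whole lung was sequenced from 6 female SCID mice, which lack mature B and T cells. All 6 received labelled CD9+CD63+CD81+ extracellular vesicles (EVs) by tail vein, then rat ELT3 cells by vein 48 h later, and the lungs were taken 72 h after those cells. In 3 mice (Tsc1-null EV) the vesicles came from cultured neural progenitors of E15.5 mouse embryos that lacked Tsc1, and in 3 mice (WT EV) from wild type progenitors of the same stage. Tsc1 pairs with Tsc2 to hold back the growth kinase mTORC1, and ELT3 is a rat uterine tumour line used as a model of lymphangioleiomyomatosis, a lung disease of cells with TSC mutations. The Tsc1 deletion was in the vesicle donor cells and not in the lungs, whether the donor cultures were clones is not given in the sources used here, and no lung without vesicles or without ELT3 cells was analysed here. Reads of the rat cells could not be separated from mouse reads.

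Oxidative phosphorylation takes place in the inner mitochondrial membrane. Complex I and complex II pass electrons from NADH and succinate to ubiquinone, complex III passes them to cytochrome c, and complex IV passes them to oxygen, while complexes I, III and IV pump protons. Complex V, the ATP synthase, makes ATP as protons flow back. Several complex IV subunits exist as a widespread gene and a gene restricted to heart and skeletal muscle, to lung, or to testis, so bulk lung can hold both kinds.

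The values were read counts scaled to library size with TMM normalization (CPM), from which whole reads could be recovered. Depth was 5101413, 9358820 and 9092830 reads in the Tsc1-null EV libraries, against 8222269, 6565182 and 8079325 reads in the WT EV libraries. Tsc1-null EV replicate 1 and WT EV replicate 2 stood apart from the rest, with median correlations to the other libraries of 0.942 and 0.963, against 0.980 to 0.982 for the remaining 4. These 2 libraries also held 30060 and 15673 CPM of the nuclear RNA Malat1, against 1609 to 2819 CPM in the others. The 8 lung epithelial markers were detected in every library, with the surfactant gene Sftpc at 13094 to 29628 CPM. Of the 84 genes, 82 had a mean of at least 1 CPM and were tested. The remaining 2, the testis genes Cox7b2 and Cox8c, were listed at 0 in every library, where 3 reads correspond to 0.323 to 0.601 CPM. Of the 82 genes, 72 had at least 100 reads in every library.

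No oxidative phosphorylation gene passed the test between the lung groups, and folds were small in all complexes apart from restricted isoforms and Ndufs5. None of the 82 genes reached an adjusted p of 0.05 in limma, and neither did any of the 14159 genes tested (0.0%). The log2 fold of Tsc1-null EV over WT EV, on the log2(CPM + 1) scale, had a median of 0.02 over the 82 genes, with 47 above 0 and 35 below. Over all genes tested the median was −0.02, with 6698 above 0. The smallest adjusted p of a member was 0.721. At an unadjusted p under 0.05 limma had 930 genes (6.57%), of which 2 were members, Cox5a and Cox7a1. On the recovered reads, edgeR called 0 genes (966 at an unadjusted p under 0.05) and DESeq2 called 14 (949 unadjusted), and neither called a member (DESeq2 gave no adjusted p for 4 of them, Cox7a1 and Cox8b included). The labels number the mice separately but name no day or batch, so each p measures the spread between these libraries only.

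Few members separated the groups completely. All 3 Tsc1-null EV libraries were above all 3 WT EV libraries for 5 members (6.1% of 82), Atp5g2, Cox5a, Cox7a2l, Ndufa4 and Sdha, against 6.86% of all genes tested. They were below for 1 member (1.22%), Uqcr11, against 6.22% of all genes. These shares are near or under the background.

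**Figure D1:**
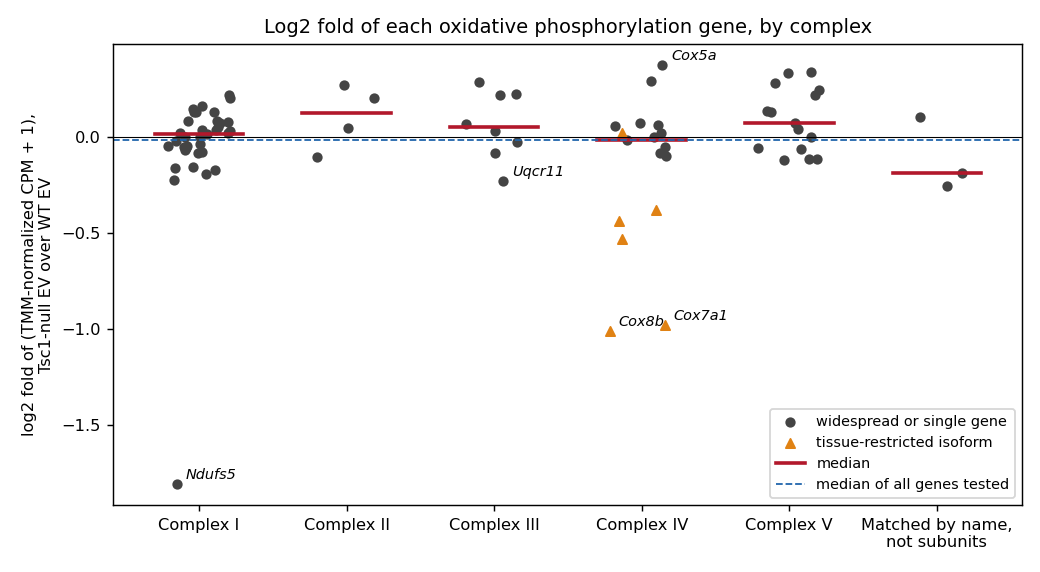
Log2 fold of TMM-normalized CPM + 1, Tsc1-null EV over WT EV, for each of the 82 genes tested (vertical axis), arranged by complex (horizontal axis), with n = 3 libraries per group. Red bars are medians, which lie between −0.19 and 0.12, the dashed line is the median of all 14159 genes tested (−0.02), and triangles are tissue-restricted complex IV isoforms, 5 of 6 of which lie below 0.

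Complex I, the NADH dehydrogenase, had 35 genes with a median log2 fold of 0.02, with 20 above 0, and a range from −1.81 (Ndufs5) to 0.22 (Ndufs1). The 7 core subunits, which carry the flavin and iron-sulphur clusters of the matrix arm, had a median of 0.03 with 5 above 0, and the 28 accessory subunits a median of 0.00 with 15 above 0.

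Ndufs1, the largest core subunit, had 54.1, 75.4 and 60.5 CPM in Tsc1-null EV lungs, against 60.6, 44.8 and 57.4 CPM in WT EV lungs. The groups overlapped, and the log2 fold was 0.22 ± 0.18 (SE, limma adjusted p 0.819).

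Among accessory subunits, Ndufb8, part of the distal membrane arm, had 104, 139 and 107 CPM in Tsc1-null EV lungs, against 121, 155 and 118 CPM in WT EV lungs. Ndufa5, a matrix arm subunit, had 57.7, 64.3 and 56.6 CPM in Tsc1-null EV lungs, against 62.4, 64.8 and 71.9 CPM in WT EV lungs. Their log2 folds were −0.17 ± 0.18 and −0.16 ± 0.14 (limma adjusted p 0.863 and 0.834), with overlapping groups. Ndufb8 turned to 0.03 when both libraries that stood apart were left out.

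Ndufs5, an accessory subunit of the intermembrane space side, carried the most negative fold of all members and needs to be read with a near copy. It had 0, 36.2 and 57.6 CPM in Tsc1-null EV lungs, against 23.8, 50.6 and 72.2 CPM in WT EV lungs, a log2 fold of −1.81 ± 1.31 (limma adjusted p 0.792). The value of 0 in Tsc1-null EV replicate 1 set this fold, which was 0.04 without that library and −0.62 in edgeR with all 6. BC002163 is a processed pseudogene at chr16:42955631-42955949 (mm10, plus strand, 319 bases), and 72.6% of its 50-base stretches also occur in Ndufs5 transcripts (chr4:123712710-123718202, minus strand). BC002163 had 67.8, 37.0 and 0.552 CPM in Tsc1-null EV lungs, against 35.0, 15.6 and 0 CPM in WT EV lungs.

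The libraries low for Ndufs5 were high for the pseudogene in both groups. Summed, the pair had 67.8, 73.2 and 58.1 CPM in Tsc1-null EV lungs, against 58.8, 66.1 and 72.2 CPM in WT EV lungs. The sums averaged 66.4 ± 7.65 CPM in Tsc1-null EV lungs and 65.7 ± 6.71 CPM in WT EV lungs (SD, n = 3 each), a log2 difference of 0.01 (two-sided exact permutation test over samples, p = 0.8, smallest possible 0.1). The level of Ndufs5 alone is therefore uncertain. Of the 82 members tested, 64 shared under 10% of their 50-base stretches with another gene, 1 (Atp5sl) had no match in the annotation, and 17 shared 10% or more, among them Ndufs5, Atp5l (68.5%), Uqcrb (43.2%) and Atp5g2 (38.3%). The 64 had a median log2 fold of 0.03.

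**Figure D2:**
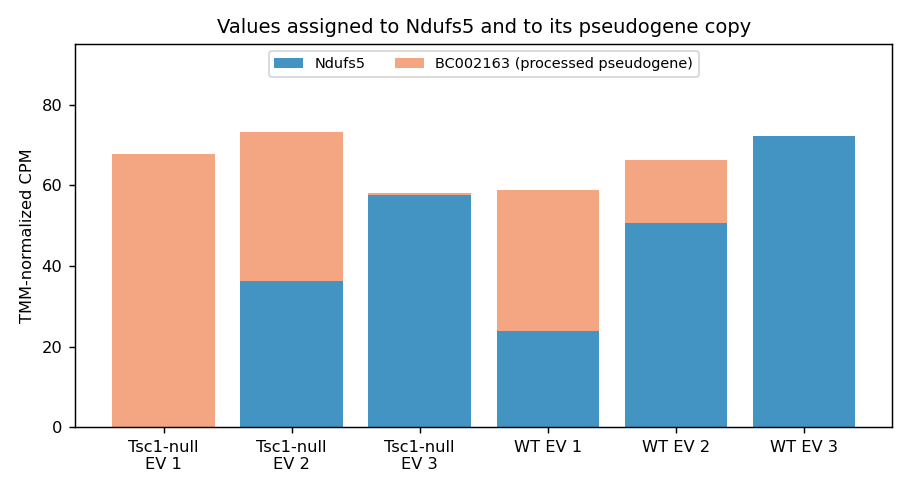
Stacked bars give the TMM-normalized CPM (vertical axis) of Ndufs5 and of its processed pseudogene BC002163 in each library (horizontal axis, Tsc1-null EV left). The share of each differs from 0 to all of the bar, while the summed height lies between 58.1 and 73.2 CPM in all 6 libraries.

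Complex II, succinate dehydrogenase, also works in the tricarboxylic acid (TCA) cycle and is encoded wholly in the nucleus. Its 4 genes had a median log2 fold of 0.12, with 3 above 0, and none passed the test. Sdha, the flavoprotein that oxidises succinate (chr13:74322254-74350280, minus strand, mm10 with GENCODE M21 annotation, as for the genes placed from here on), had 135, 161 and 144 CPM in Tsc1-null EV lungs, against 133, 115 and 133 CPM in WT EV lungs. The groups did not overlap, and the means were 146 ± 13.1 CPM in Tsc1-null EV lungs and 127 ± 10.7 CPM in WT EV lungs (SD, n = 3 each; log2 fold 0.20 ± 0.14, limma adjusted p 0.783).

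Sdhd, a membrane anchor, had 128, 102 and 73.8 CPM in Tsc1-null EV lungs, against 88.3, 89.4 and 69.1 CPM in WT EV lungs, with overlap (log2 fold 0.27 ± 0.22, limma adjusted p 0.808). The other anchor, Sdhc, had 139, 163 and 152 CPM in Tsc1-null EV lungs, against 158, 131 and 151 CPM in WT EV lungs. Sdhb, the iron-sulphur subunit, was the 1 gene below 0, with 50.3, 65.7 and 71.9 CPM in Tsc1-null EV lungs, against 64.4, 54.8 and 83.4 CPM in WT EV lungs. Neither separated the groups, with log2 folds of 0.05 ± 0.15 and −0.10 ± 0.20.

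Complex III, the cytochrome bc1 complex, had 8 genes with a median log2 fold of 0.05, of which 5 were above 0. The core proteins Uqcrc1 and Uqcrc2 and the Rieske iron-sulphur protein Uqcrfs1 had log2 folds of 0.22, 0.29 and 0.22, and the 5 small subunits a median of −0.03. Uqcrc2 had 103, 126 and 111 CPM in Tsc1-null EV lungs, against 96.2, 72.0 and 114 CPM in WT EV lungs, and the groups overlapped (SE 0.19, limma adjusted p 0.77). Uqcrc1 had 89.6, 141 and 124 CPM in Tsc1-null EV lungs, against 105, 80.5 and 117 CPM in WT EV lungs. Uqcrfs1 had 88.8, 111 and 85.5 CPM in Tsc1-null EV lungs, against 85.4, 68.2 and 91.1 CPM in WT EV lungs. All 3 genes overlapped between the groups, and each had its lowest value in WT EV replicate 2. Leaving out that library gave log2 folds of 0.07 (Uqcrc1), 0.11 (Uqcrc2) and 0.10 (Uqcrfs1). Leaving out Tsc1-null EV replicate 1 instead gave 0.41, 0.36 and 0.27 in the same order. The cytochrome c1 gene Cyc1, which the symbol rule missed, had a log2 fold of 0.01 ± 0.16, with overlap.

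Uqcr11, a small subunit (chr10:80402997-80406830, minus strand), was the 1 member below the WT EV range in every Tsc1-null EV library. It had 86.8, 89.9 and 86.2 CPM in Tsc1-null EV lungs, against 91.5, 114 and 105 CPM in WT EV lungs (means 87.6 ± 2.01 CPM in Tsc1-null EV lungs and 103 ± 11.2 CPM in WT EV lungs, SD, n = 3 each). Its log2 fold was −0.23 ± 0.14 with a limma adjusted p of 0.756. Uqcrh, the acidic hinge protein and the most abundant complex III mRNA, had 204, 229 and 174 CPM in Tsc1-null EV lungs, against 177, 236 and 183 CPM in WT EV lungs. Its groups overlapped, and Uqcrb, the ubiquinone-binding protein, overlapped too, at 108, 135 and 113 CPM in Tsc1-null EV lungs, against 126, 108 and 127 CPM in WT EV lungs. Per kilobase of transcript Uqcrh reached 427 CPM in Tsc1-null EV lungs and 419 CPM in WT EV lungs.

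Complex IV, cytochrome c oxidase, was described by the tissue range of its subunits. The 11 widespread nuclear subunits had a median log2 fold of 0.02 with 7 above 0, whereas the 6 detected restricted isoforms had a median of −0.48 with 1 above 0. Whether the 2 sets differ was not tested, since the genes of each share libraries and cells.

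Cox5a, a subunit on the matrix side (chr9:57521274-57532426, plus strand), had the largest positive fold of the 82 genes. It had 121, 126 and 101 CPM in Tsc1-null EV lungs, against 95.5, 80.0 and 91.3 CPM in WT EV lungs. The groups did not overlap, the means were 116 ± 13.2 CPM in Tsc1-null EV lungs and 88.9 ± 8.04 CPM in WT EV lungs (SD, n = 3 each), and the log2 fold was 0.38 ± 0.15 with a limma adjusted p of 0.721. Ndufa4 had 154, 214 and 162 CPM in Tsc1-null EV lungs, against 149.5, 134 and 145 CPM in WT EV lungs. It too was separated, by a margin that was narrow at 154 against 149.5 CPM (log2 fold 0.29 ± 0.16, limma adjusted p 0.741).

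Cox4i1, the widespread form of subunit 4 and the most abundant complex IV mRNA, had 376, 433 and 335 CPM in Tsc1-null EV lungs, against 376, 341 and 373 CPM in WT EV lungs. Per kilobase it was also the highest of the family, at 512 CPM in Tsc1-null EV lungs and 488 CPM in WT EV lungs. The groups overlapped and the log2 fold was 0.06 ± 0.16 (limma adjusted p 0.956). Cox6c had 195, 233 and 189 CPM in Tsc1-null EV lungs, against 178, 196 and 219 CPM in WT EV lungs, and also overlapped. The widespread partners of the muscle isoforms overlapped as well. Cox6a1 had 136, 201 and 198 CPM in Tsc1-null EV lungs, against 186, 159 and 217 CPM in WT EV lungs. Cox7a2 had 66.8, 108 and 93.8 CPM in Tsc1-null EV lungs, against 74.8, 98.6 and 102 CPM in WT EV lungs. Cox8a had 160.2, 209.6 and 207 CPM in Tsc1-null EV lungs, against 194, 179.6 and 206 CPM in WT EV lungs. None separated the groups, and neither did Cox6b1, with 155, 203 and 165 CPM in Tsc1-null EV lungs, against 173, 152 and 188 CPM in WT EV lungs. Cox7b, whose testis counterpart was at 0, had 68.6, 101 and 81.4 CPM in Tsc1-null EV lungs, against 83.2, 87.2 and 95.7 CPM in WT EV lungs. These widespread subunits, Cox5b and Cox7c had log2 folds between −0.10 (Cox7b) and 0.07 (Cox7c). Cox7a2l, which helps assemble complexes III and IV into supercomplexes and is not counted as a subunit, had closely spaced values, with 172, 175 and 172 CPM in Tsc1-null EV lungs, against 159, 166 and 158 CPM in WT EV lungs. It was separated with a log2 fold of 0.11 ± 0.13 (limma adjusted p 0.893).

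The muscle isoforms Cox6a2, Cox7a1 and Cox8b, which replace Cox6a1, Cox7a2 and Cox8a in heart and skeletal muscle, were low in whole lung and variable between mice. In bulk tissue, fewer cells of a type and less RNA per cell cannot be told apart. Cox7a1 (chr7:30184144-30186078, plus strand) had 3.41, 9.17 and 3.76 CPM in Tsc1-null EV lungs, against 8.05, 8.08 and 18.9 CPM in WT EV lungs (17 to 153 reads). Its groups overlapped through Tsc1-null EV replicate 2, and its log2 fold was −0.98 ± 0.41 (limma unadjusted p 0.0413, adjusted p 0.721). Without WT EV replicate 3 the fold was −0.60.

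Cox8b (chr7:140898945-140900446, minus strand) had 1.40, 3.23 and 2.32 CPM in Tsc1-null EV lungs, against 4.76, 2.499 and 12.7 CPM in WT EV lungs (7 to 103 reads). Its log2 fold was −1.01 ± 0.47 (limma adjusted p 0.721), and −0.47 without WT EV replicate 3. Cox6a2 (chr7:128205435-128206387, minus strand) had 6.41, 18.98 and 12.3 CPM in Tsc1-null EV lungs, against 21.2, 9.41 and 24.7 CPM in WT EV lungs. It overlapped widely, with a log2 fold of −0.53 ± 0.43 (limma adjusted p 0.81) and of −0.15 without Tsc1-null EV replicate 1. All 3 muscle genes were highest in WT EV replicate 3 and lowest in Tsc1-null EV replicate 1.

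Heart muscle markers were also mostly lower in Tsc1-null EV lungs, though none passed the adjusted limma threshold, and their part in the result was not tested. Of the 20 markers listed, 19 were tested, with a median log2 fold of −0.97, 18 below 0 and 4 at an unadjusted limma p under 0.05. Their summed level was 502, 1099 and 807 CPM in Tsc1-null EV lungs, against 1337, 918 and 1341 CPM in WT EV lungs. The libraries ranked in the same order for this sum and for Cox8b, but not for Cox6a2 or Cox7a1, nor for every marker. Titin (Ttn) had 11.4, 15.6 and 17.7 CPM in Tsc1-null EV lungs, against 32.0, 37.3 and 39.4 CPM in WT EV lungs, and the calcium release channel gene Ryr2 had 8.22, 9.27 and 8.17 CPM in Tsc1-null EV lungs, against 12.2, 18.7 and 10.5 CPM in WT EV lungs. Neither overlapped between the groups, and WT EV replicate 2 ranked second for Ttn and highest for Ryr2. Folds of the more abundant markers varied. Des, the highest of the list, had a log2 fold of −0.43 ± 0.17, and Actc1 had −0.05 ± 0.27. Myh6 and Tnnt2 had larger negative folds, of −1.04 ± 0.53 and −0.90 ± 0.31. Myh7 was the 1 marker above 0, at 0.13 ± 0.21. Des, Actc1, Myh6, Tnnt2 and Myh7 all overlapped between the groups. The atrial light chain Myl7 had 6.62, 73.0 and 36.0 CPM in Tsc1-null EV lungs, against 76.5, 35.7 and 119 CPM in WT EV lungs. The ventricular light chain Myl2 was at or under 1.40 CPM in every library, and the atrial hormone gene Nppa had 0, 3.23 and 0 CPM in Tsc1-null EV lungs, against 13.3, 0.29 and 15.9 CPM in WT EV lungs.

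Markers of brown adipocytes, which also use Cox7a1 and Cox8b, were low in most libraries. Of 10 markers 9 were tested, with a median log2 fold of −0.61, 3 above 0 and summed levels of 61.9 to 82.1 CPM in Tsc1-null EV lungs and 61.3 to 131.9 CPM in WT EV lungs. The uncoupling protein Ucp1 had 0, 0 and 0.11 CPM in Tsc1-null EV lungs, against 0.122, 0.147 and 9.50 CPM in WT EV lungs, and was highest in WT EV replicate 3, as were Cox7a1 and Cox8b. Of the 9 markers tested, 5 were highest in WT EV replicate 3, Ucp1 and Adrb3 included. Adrb3 had 4.81, 8.73 and 6.85 CPM in Tsc1-null EV lungs, against 14.3, 10.9 and 19.2 CPM in WT EV lungs. Its groups did not overlap (log2 fold −1.02 ± 0.27, limma adjusted p 0.721). Cidea, Prdm16 and Ppargc1a were instead highest in Tsc1-null EV replicate 1, at 7.42, 27.3 and 12.2 CPM. The part of these cells in the result was not tested.

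**Figure D3:**
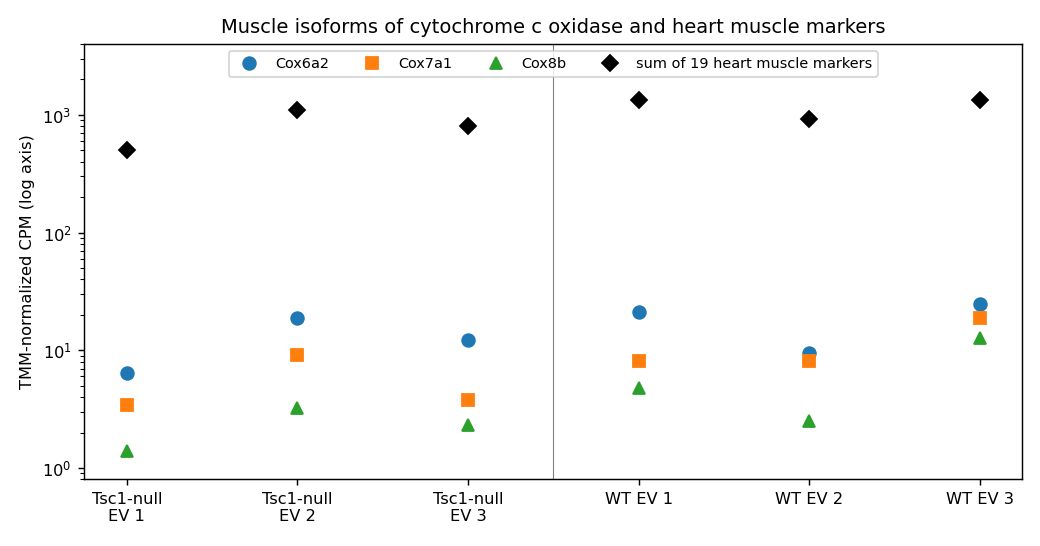
TMM-normalized CPM (vertical log axis) of Cox6a2, Cox7a1, Cox8b and the sum of the 19 heart muscle markers tested in each library (horizontal axis, Tsc1-null EV left). All 3 isoforms and the marker sum are lowest in Tsc1-null EV replicate 1 and highest in WT EV replicate 3, and the groups overlap.

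Cox4i2, the lung and hypoxia-linked form of subunit 4, and Ndufa4l2, a hypoxia-inducible relative of Ndufa4 found in pericytes, were higher per kilobase of transcript than the muscle isoforms, at 90.9 and 33.5 CPM in Tsc1-null EV lungs and 118 and 41.5 CPM in WT EV lungs. Cox4i2 had 37.1, 82.3 and 79.8 CPM in Tsc1-null EV lungs, against 101, 65.0 and 93.3 CPM in WT EV lungs, and Ndufa4l2 had 16.8, 36.8 and 40.3 CPM in Tsc1-null EV lungs, against 43.5, 31.3 and 41.5 CPM in WT EV lungs. Tsc1-null EV replicate 1 was the low library in both cases. The log2 folds of −0.43 ± 0.31 and −0.38 ± 0.31 (limma adjusted p 0.788 and 0.815) became −0.07 and 0.00 without it.

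Pericyte and vascular smooth muscle markers were low in the same library. Their 10 genes had a median log2 fold of −0.20, with 1 above 0, and summed to 657, 1196 and 887 CPM in Tsc1-null EV lungs, against 1154, 877 and 955 CPM in WT EV lungs, and their part in the result was not tested. Cox6b2, known as the testis form of subunit 6b, had 7.42, 11.0 and 10.6 CPM in Tsc1-null EV lungs, against 9.27, 10.1 and 8.76 CPM in WT EV lungs. Of 8 testis germ cell markers, Prm1, Prm2, Tnp1, Tnp2, Pgk2 and Odf1 were at 0 in every library, and Ldhc and Tssk6 were at or under 0.22 and 0.65 CPM.

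As a share of each pair per kilobase of transcript, Cox4i2 made up 15.0% (9.15% to 19.5%) of Cox4i1 plus Cox4i2 in Tsc1-null EV lungs and 19.4% (16.3% to 21.5%) in WT EV lungs. Cox7a1 made up 8.04% (5.67% to 11.3%) of its pair in Tsc1-null EV lungs and 15.54% (11.0% to 21.7%) in WT EV lungs. Cox8b was the smallest share, at 1.77% (1.32% to 2.30%) in Tsc1-null EV lungs and 4.77% (2.08% to 8.63%) in WT EV lungs. The log2 ratio of restricted over widespread form, on CPM + 1, was then taken within each library, where library scaling has little effect, and compared between the groups. The difference, Tsc1-null EV minus WT EV, was −0.50 for Cox4i2 over Cox4i1, −0.45 for Cox6a2 over Cox6a1, −0.93 for Cox7a1 over Cox7a2, −0.99 for Cox8b over Cox8a and −0.67 for Ndufa4l2 over Ndufa4, and 0.00 for Cox6b2 over Cox6b1. Over these 6 ratios the two-sided exact permutation p ranged from 0.2 to 1, where 3 against 3 cannot go below 0.1, and the smallest Benjamini-Hochberg adjusted p was 0.3. With 1 library left out, the negative differences were as small as −0.14, −0.26, −0.63, −0.50 and −0.38, in the order given.

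The stretches upstream of 4 of these complex IV genes are printed so that the letters searched for motifs can be read for widespread and muscle isoforms. Each is the 250 bases before the RefSeq start in GRCm38.p6, 5′ to 3′ on the gene's own strand. Capitals mark matches to the core motif of nuclear respiratory factor 1 (NRF1) and the ETS motif CCGGAAG in Cox6a1, and to the E-box CAGCTG in Cox8b, on either strand. The window of Cox6a1 lies at chr5:115348959-115349208 (minus strand), Cox8a at chr19:7217617-7217866 (minus strand), Cox7a1 at chr7:30183921-30184170 (plus strand) and Cox8b at chr7:140900447-140900696 (minus strand). The GENCODE M21 gene starts upstream of the RefSeq start for a pair of them, so the last 23 bases of the Cox6a1 window, from base 228 and with the ETS match at base 235, and the last 27 of the Cox7a1 window lie inside the annotated gene. Cox8a and Cox7a1 had no match, and 1 or 2 matches in a single gene show no difference between widespread and muscle forms.
Cox6a1 (widespread): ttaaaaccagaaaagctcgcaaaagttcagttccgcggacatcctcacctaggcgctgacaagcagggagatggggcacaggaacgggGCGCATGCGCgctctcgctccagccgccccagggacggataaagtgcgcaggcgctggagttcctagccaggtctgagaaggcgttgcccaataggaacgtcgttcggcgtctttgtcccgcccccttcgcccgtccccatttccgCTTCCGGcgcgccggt
Cox8a (widespread): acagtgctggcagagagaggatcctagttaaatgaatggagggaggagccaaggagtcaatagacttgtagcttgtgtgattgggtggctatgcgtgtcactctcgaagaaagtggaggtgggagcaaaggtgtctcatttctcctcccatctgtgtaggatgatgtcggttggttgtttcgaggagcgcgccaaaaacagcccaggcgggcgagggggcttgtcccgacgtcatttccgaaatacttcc
Cox7a1 (muscle): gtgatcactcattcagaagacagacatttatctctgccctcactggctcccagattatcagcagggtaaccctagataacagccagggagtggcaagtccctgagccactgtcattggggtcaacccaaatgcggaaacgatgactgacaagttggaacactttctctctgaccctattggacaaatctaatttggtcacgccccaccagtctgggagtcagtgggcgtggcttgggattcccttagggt
Cox8b (muscle): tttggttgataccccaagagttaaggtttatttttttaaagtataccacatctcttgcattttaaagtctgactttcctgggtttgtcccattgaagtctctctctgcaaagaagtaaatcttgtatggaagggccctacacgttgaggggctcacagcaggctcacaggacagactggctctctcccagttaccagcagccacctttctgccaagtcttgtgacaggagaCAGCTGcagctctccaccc

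Of the 84 genes, 66 matched an entry in the RefSeq promoter table. The NRF1 motif was in the 250 bases upstream of 6 of the 66 (9.09%), Atp5g2, Atp5k, Cox6a1, Ndufa11, Ndufb4 and Sdhd, against 1.89% of all 27025 promoters. The ETS motif was in 11 (16.7%), against 7.05% of all. The estrogen-related receptor motif TCAAGGTCA was in 1 (1.52%), Atp5g3, against 0.366% of all, and the YY1 motif AAGATGGC in 0, against 1.59% of all. The MEF2 motif, named for a muscle transcription factor family, was in 0, against 3.01% of all, and the E-box in 6 (9.09%), Atp5b, Cox8b, Ndufa8, Ndufb10, Ndufs5 and Ndufv2, against 12.8%. No matches of different motifs overlapped in the members. By GENCODE M21, the whole Atp5g2 window lies inside the annotated gene. The Atp5k window does so from base 202, and its NRF1 match starts at base 201. Most of the 66 windows lie at least partly inside the annotated gene, and several lie wholly inside it. A match describes letters in this window only.

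Complex V, the ATP synthase, had 15 genes with a median log2 fold of 0.07, with 10 above 0. The 5 genes of the catalytic head and central stalk had a median of 0.13, the 3 genes that encode the c ring 0.22, and the 7 genes of the peripheral stalk and membrane part −0.06.

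Atp5a1, the alpha subunit of the head, had 399, 554 and 499 CPM in Tsc1-null EV lungs, against 408, 338 and 395 CPM in WT EV lungs. The groups overlapped, with means of 484 ± 78.8 CPM in Tsc1-null EV lungs and 380.4 ± 37.4 CPM in WT EV lungs (SD, n = 3 each, log2 fold 0.34 ± 0.18, limma adjusted p 0.728). Atp5b, the catalytic beta subunit, had 346, 486 and 475 CPM in Tsc1-null EV lungs, against 351, 313 and 404 CPM in WT EV lungs, again with overlap (log2 fold 0.28 ± 0.19, limma adjusted p 0.772). For both, Tsc1-null EV replicate 1 was the low library of its group.

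The c ring, which rotates as protons pass, has 3 genes for an identical mature protein. Atp5g2 had 184, 207 and 177 CPM in Tsc1-null EV lungs, against 176, 130.1 and 146 CPM in WT EV lungs, and was separated by less than 1 CPM (log2 fold 0.33 ± 0.16, limma adjusted p 0.721). Atp5g3 had 173, 232 and 179.6 CPM in Tsc1-null EV lungs, against 147, 162 and 189 CPM in WT EV lungs. Atp5g1 had 55.9, 90.9 and 80.8 CPM in Tsc1-null EV lungs, against 67.7, 59.7 and 76.4 CPM in WT EV lungs. Both overlapped, with log2 folds of 0.22 ± 0.17 and 0.14 ± 0.20.

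The level of the whole set varied between mice of 1 group. The mean log2 level of the 82 genes, relative to the WT EV mean, was −0.27, 0.19 and −0.01 in Tsc1-null EV lungs, against −0.05, −0.09 and 0.14 in WT EV lungs. Without the restricted isoforms and Ndufs5, the other 75 genes were at −0.13, 0.22 and 0.02 in Tsc1-null EV lungs, against −0.04, −0.07 and 0.11 in WT EV lungs. Both the lowest and the highest library were of the Tsc1-null EV group in either count. Complex I had levels of −0.32, 0.18 and 0.01 in Tsc1-null EV lungs, against −0.09, −0.06 and 0.15 in WT EV lungs. Its low value in Tsc1-null EV replicate 1 rested in large part on Ndufs5, and the other 34 genes had −0.17, 0.20 and −0.0051 in Tsc1-null EV lungs, against −0.06, −0.07 and 0.13 in WT EV lungs. Complex V had −0.13, 0.28 and 0.12 in Tsc1-null EV lungs, against −0.05, −0.07 and 0.12 in WT EV lungs. The same library, Tsc1-null EV replicate 2, was highest in complexes I, II, III and V and in the widespread part of complex IV.

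**Figure D4:**
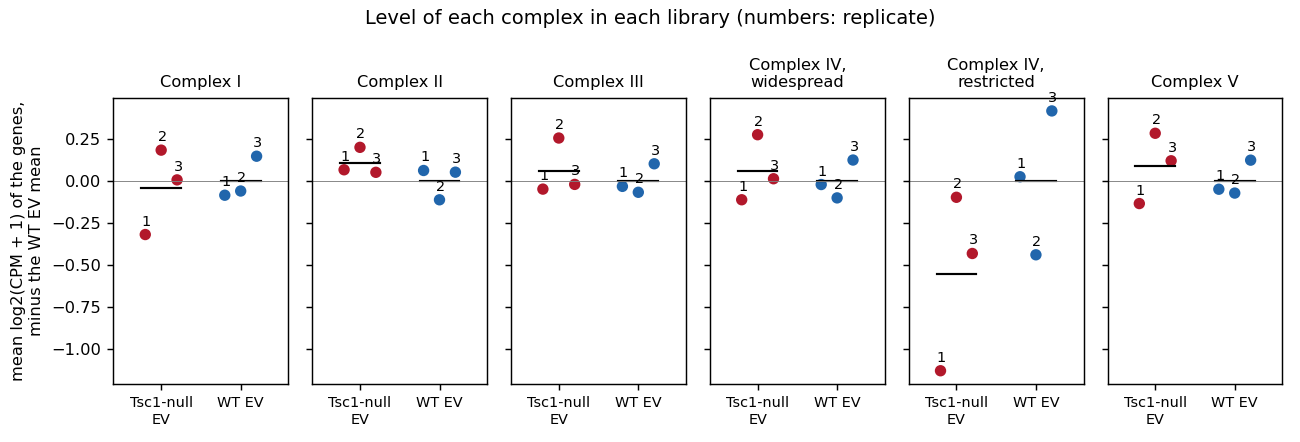
Mean log2(CPM + 1) of the genes of each complex minus the WT EV mean (vertical axis), per library, with replicate numbers beside the points and horizontal bars for the mean of 3 libraries. Tsc1-null EV libraries stand left of WT EV libraries in each panel, and the groups overlap in every panel.

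Gene by gene, Tsc1-null EV replicate 2 had the highest value of the 6 libraries for 47 of the 82 genes (57.3%), whereas it was highest for 14.9% of all genes tested. The share was 36.4% for mitochondrial ribosomal protein genes, 37.5% for electron carriers and accessory proteins and 60.0% for the pericyte list. It was 23.5% for TCA cycle genes, 17.5% for assembly factors and 13.3% for regulators of mitochondrial biogenesis. It was 10.5% for the heart muscle list, 11.1% for the brown adipocyte list and 37.5% for lung epithelial markers. Cytosolic ribosomal protein genes had 28.6% there, but 50.6% of them were highest in WT EV replicate 2. Among the members, Tsc1-null EV replicate 2 was highest for 19 of 35 genes of complex I, 6 of 8 of complex III, 10 of 17 of complex IV and 9 of 15 of complex V. It was the lowest library for 1 member (1.22%), against 13.6% of all genes. Tsc1-null EV replicate 1 was lowest for 35 members (42.7%), against 30.4% of all genes, 45.5% of cytosolic ribosomal protein genes, 84.2% of the heart muscle list and 90.0% of the pericyte list. Whether the members differ from these lists was not tested. Without Tsc1-null EV replicate 2 the median log2 fold of the members was −0.08, and without Tsc1-null EV replicate 1 it was 0.10.

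**Figure D5:**
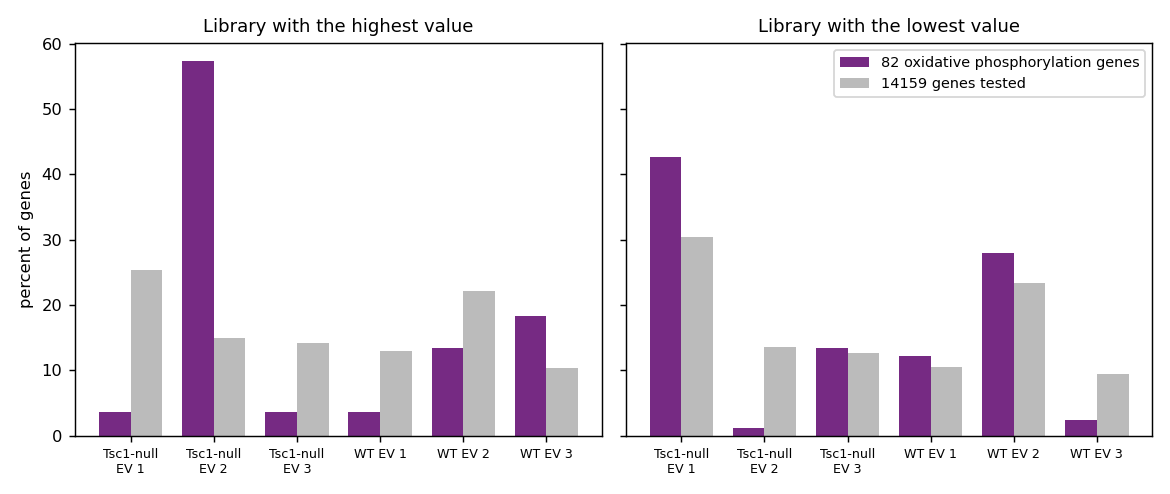
Percent of genes (vertical axis) whose highest (left panel) or lowest (right panel) value of the 6 libraries fell in each library (horizontal axis), for the 82 oxidative phosphorylation genes and for all 14159 genes tested. Tsc1-null EV replicate 2 holds 57.3% of the members' highest values, against 14.9% over all genes.

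Ribosomal protein and other mitochondrial gene lists gave a frame for these levels. The 77 mitochondrial ribosomal protein genes had a median log2 fold of −0.0048, with 36 above 0, and the 77 cytosolic ribosomal protein genes had one of −0.04. The 40 assembly factors tested, of 45 listed, had a median of −0.03 with 17 above 0. Nubpl, which loads iron-sulphur clusters into complex I, had 7.62, 8.30 and 7.62 CPM in Tsc1-null EV lungs, against 5.98, 4.41 and 4.44 CPM in WT EV lungs. It separated the groups with a log2 fold of 0.58 ± 0.20 and was not called. Of the 40 assembly factors, 2 were above the WT EV range in all 3 Tsc1-null EV libraries and 3 were below it. Over all genes tested these shares were 6.86% and 6.22%.

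The 17 TCA cycle genes had a median log2 fold of 0.15, with 14 above 0. Their summed level was 1824, 1848 and 1748 CPM in Tsc1-null EV lungs, against 1763, 1438 and 1710 CPM in WT EV lungs, and the lowest was WT EV replicate 2, which stood apart. The 16 electron carriers and accessory proteins had a median of 0.09, with 11 above 0. Among them Ndufab1 and Usmg5, the complex I and V subunit genes missed by the symbol rule, had log2 folds of −0.03 and −0.19. Slc25a5, an ADP/ATP carrier of the inner membrane, had 149, 140.0 and 139.8 CPM in Tsc1-null EV lungs, against 92.9, 79.7 and 116 CPM in WT EV lungs (log2 fold 0.58 ± 0.17, limma adjusted p 0.721). Slc25a4, the ADP/ATP carrier of heart and skeletal muscle, was looked up after the values of Slc25a5 were seen. It had 129, 218 and 196 CPM in Tsc1-null EV lungs, against 207, 157 and 236 CPM in WT EV lungs (log2 fold −0.16 ± 0.23, limma adjusted p 0.918), with overlap.

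Of 16 regulators of mitochondrial biogenesis 15 were tested, with a median log2 fold of −0.03 and 4 above 0. All 3 Tsc1-null EV libraries were above the WT EV range for 1 of them and below it for 3, against 6.86% and 6.22% of all genes. Esrra, a nuclear receptor that drives oxidative genes, had 26.9, 26.5 and 23.1 CPM in Tsc1-null EV lungs, against 29.4, 34.7 and 37.3 CPM in WT EV lungs, with no overlap (log2 fold −0.39 ± 0.16). Pprc1, a coactivator of the PGC-1 family, had 23.5, 27.1 and 25.5 CPM in Tsc1-null EV lungs, against 19.0, 20.3 and 20.2 CPM in WT EV lungs, with no overlap in the other direction (log2 fold 0.34 ± 0.15). Neither passed the adjusted limma threshold, and neither did any gene of these lists.

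When limma weighted the libraries by their own spread, 5 members passed an adjusted p of 0.05, against 1050 of all genes (7.42%). The weights were 0.213, 3.95 and 0.776 for Tsc1-null EV libraries and 0.932, 0.393 and 4.18 for WT EV libraries, so Tsc1-null EV replicate 2 and WT EV replicate 3 carried the most weight. The members were Ndufa4 (log2 fold 0.48), Atp5a1 (0.45), Atp5g2 (0.42), Cox5a (0.41) and Cox8b (−1.43), with limma adjusted p between 0.0327 and 0.0401. Their share of the 82 genes, 6.1%, was below that of all genes.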

How the data were processed

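The authors deposited 1 table of TMM-normalized signal per gene and library, as its name states, and its values were taken as TMM-normalized CPM. Bowtie2 2.1.0, RSEM 1.2.15, edgeR and the build mm10 are named without roles, per the submitters' processing notes. The sources used here give no annotation, filter or strand use, and reads of genes that overlap on opposite strands may be mixed. The table held 0 rows of mitochondrially encoded genes, and 5611 rows were 0 in every library. Every value was a whole multiple of a library's smallest step (100% within 0.001), from which reads were recovered.

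The 14159 genes whose mean over the 6 libraries reached 1 were compared as log2(value + 1) in R 4.3.3 with limma 3.58.1, two-sided and with an intensity trend. Benjamini-Hochberg adjustment ran over all genes tested, and the threshold was 0.05. That scale understates the fold of low genes. edgeR 4.0.16 and DESeq2 1.42.0 were run on the recovered reads as alternatives. The limma code was tested on simulated data. It recovered 25% of genes given a log2 fold size of 1 and 86% of those given 2, with 7 false calls. Isoform ratios were compared by exact permutation over samples. Levels per kilobase used the median length of protein-coding transcripts in GENCODE M21, and shared sequence was counted as 50-base stretches found in another gene's transcripts. Upstream sequences were read from a RefSeq table of GRCm38.p6, and the letters of the motifs were settled after a first search had been seen.

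The members, lists and tests were chosen with earlier results of these data known. In each complex, values per library were given for the 2 genes of highest level, the 3 of smallest unadjusted p among those with a mean of at least 5, and both genes of each isoform pair. Some genes that this rule allowed are not reported here. From the other lists, up to 3 genes of smallest unadjusted p and the highest could be named. Cox7a2l, Atp5g1, Atp5g3, BC002163, the marker genes Ucp1, Cidea, Prdm16, Ppargc1a, Myl7, Myl2 and Nppa and the carrier Slc25a4 were added with their values known. So were the heart markers Myh6, Myh7 and Actc1 and the subunit genes Cyc1, Ndufab1 and Usmg5. Alternatives covered other pseudocounts, filters and scalings, sample weights, count models and each library left out.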

Additional observations from a re-analysis of the deposited data

How the results depend on the processing

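No paired analysis was possible because the sample numbers are not shared between the groups. Of all genes, 14 were called by DESeq2, 1050 with sample weights, 25 without both libraries that stood apart (chosen after seeing the data), and 0 to 2 when each library was left out. Of the members, 5 were called with sample weights and 0 in the other settings, where DESeq2 gave no adjusted p for Atp5s, Cox6b2, Cox7a1 and Cox8b and the filter at 5 left out Cox8b. The median log2 fold of complex III was 0.19 with sample weights. With each library left out, medians ranged from −0.08 to 0.10 for all members, −0.11 to 0.12 for complex I, 0.05 to 0.17 for complex II, −0.04 to 0.15 for complex III, −0.10 to 0.09 for complex IV and −0.01 to 0.22 for complex V, while the median of all genes stayed between −0.02 and 0.00.

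Directions reversed with sample weights for Cox7a2 (0.097), Cox7b (0.051), Cox8a (0.036), Ndufb8 (0.12) and Uqcrb (0.049), and without both libraries that stood apart for Cox7a2 (0.20), Cox7b (0.025), Cox8a (0.058), Ndufb8 (0.028) and Ndufs5 (0.13). With 1 library left out, log2 folds crossed 0 for Atp5g1 (−0.0075 to 0.34), Cox4i1 (−0.033 to 0.15), Cox6a1 (−0.19 to 0.10), Cox6b1 (−0.092 to 0.10), Cox6b2 (−0.070 to 0.19), Cox6c (−0.038 to 0.13), Cox7a2 (−0.20 to 0.14), Cox7b (−0.24 to 0.036), Cox8a (−0.083 to 0.11), Ndufa4l2 (−0.60 to 0.0044), Ndufs5 (−2.90 to 0.041), Sdhb (−0.24 to 0.059), Sdhc (−0.034 to 0.11), Uqcrb (−0.12 to 0.037) and Uqcrh (−0.064 to 0.16), and the log2 ratio of Cox6b2 over Cox6b1 did so too (−0.11 to 0.13). The causes were not tested. Read counts of 7 to 153 limit Cox8b and Cox7a1, and 3 libraries per group limit every comparison.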
